A study of Mus musculus with 16 samples.

Results

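Cells make ATP from glucose by glycolysis, a chain of cytosolic enzymes that ends in pyruvate, and lactate dehydrogenase turns that pyruvate into lactate when it does not enter the mitochondria. The hypoxia-inducible factor HIF, a dimer of an oxygen-regulated alpha subunit such as Hif1a with the stable subunit Arnt, binds DNA elements with a core of ACGTG or GCGTG and raises the glucose transporter, most glycolytic enzymes and a set of genes for mitophagy, vessel growth and oxygen sensing. In the presence of oxygen the prolyl hydroxylases Egln1 and Egln3 mark the alpha subunit for destruction, so HIF is regulated mainly at the protein level. The genes described here are a list of 37 glycolysis and hypoxia genes, of which 34 were found under their own symbol among 12100 genes and Pkm2 was found under its current symbol, Pkm. Aldoa and Slc16a3 were not analysed here, which leaves 35 genes: 2 transporters (Slc2a1, Slc16a1), 15 glycolytic enzymes, 4 switches of glycolytic flux (Pfkfb3, Pfkfb4, Pdk1, Pdk3), 3 genes of oxygen sensing (Hif1a, Egln1, Egln3) and 11 other HIF targets.

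RNA had been sequenced from 16 poly(A)-selected libraries of mouse embryo fibroblasts that differ in Arkadia (Rnf111), a ubiquitin ligase of the TGFβ pathway, before and during treatment with TGFβ at 2.5 ng/ml. The library labels carry the letters A and B and the design text speaks of 2 batches of sequencing data; set A held Ark+/+ cells (called WT here) and Ark-/- cells (null) at 0, 1, 4 and 16 h. Set B held Ark-/- cells with the retroviral constructs rvCAG-ArkWT (rvWT) or rvCAG-Arksim (sim, the Arkadia sim mutant) at 0, 1 and 4 h, and null cells at 0 and 1 h. The 0 h cells were the untreated controls; a null line with an empty retrovirus and a 4 h null library of set B were not analysed here. Each line and time had 1 library, except null at 0 and 1 h with 1 in each set, so the times of a line stand in for its replicates, and the labels call the samples independent without saying whether they come from separate cultures. Each p-value therefore rests on scatter between libraries that may be technical only, and differences of a line cannot be told apart from differences between cell isolates or from infection.

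Values are FPKM, which correct fragment numbers for the length of the transcript and for sequencing yield, and their total per library ran from 397019 to 481969.9; read counts could not be recovered, so depth is unknown and only the scatter between libraries measures precision. Rnf111 followed the labels, at 14.8 ± 0.306 FPKM in WT and 0.163 ± 0.0331 in null of set A (SD, n = 4 each). It stood at 113 ± 11.9 FPKM in rvWT and 59.7 ± 3.305 in sim (SD, n = 3 each). In null of set B it was at 0.526 and 0.435 FPKM at 0 and 1 h. The summed level of the 7 fibroblast markers among the genes measured (of 9 listed) ran from 1728 to 2251 FPKM in WT, 2549 to 3791 in null, and 4090 to 5074 in rvWT and sim. The 4 measured epithelial keratins (of 6 epithelial markers listed) summed to 271.7 to 523.2 FPKM in WT, nearly all of it Krt19. They summed to 25.2 to 42.4 in null and 10.7 to 22.0 in rvWT and sim, and Epcam and Cdh1 were not analysed here. Krt7, Krt8 and Krt18 were lower in WT than in null of set A. They stood at 2.03 to 2.90, 0.586 to 1.17 and 0.431 to 1.08 FPKM in WT, against 15.8 to 25.3, 2.64 to 12.7 and 1.21 to 1.91. Endothelial markers (2 of 5) summed to 0.248 to 0.953 FPKM in WT and 2.76 to 10.8 elsewhere, and haematopoietic markers (2 of 5) to 5.75 to 15.4 in all lines, with the endothelial Tek at 0 in the WT 16 h library. Krt19 and Xist (2.31 ± 0.402 FPKM in WT against 48.8 ± 1.86 in null of set A, SD, n = 4 each) moved with the line, and their part in the line differences below was not tested.

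The promoters of 6 members picked from those named below, each with an ACGTG match, are shown because HIF acts through ACGTG and GCGTG cores. They are the 250 bases before an annotated start, from RefSeq with build GRCm38.p6 (a newer build than the mm9 of the expression values). Sequences run 5′ to 3′ on the gene's strand, with ACGTG or GCGTG on either strand in capitals.
Bnip3 (chr7:138909507-138909756, minus strand): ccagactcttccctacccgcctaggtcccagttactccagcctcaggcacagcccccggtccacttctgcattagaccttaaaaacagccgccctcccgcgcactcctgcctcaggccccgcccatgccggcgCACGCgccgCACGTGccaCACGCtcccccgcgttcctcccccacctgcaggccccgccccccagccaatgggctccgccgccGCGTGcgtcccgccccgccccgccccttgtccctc
Slc2a1 (chr4:119108495-119108744, plus strand): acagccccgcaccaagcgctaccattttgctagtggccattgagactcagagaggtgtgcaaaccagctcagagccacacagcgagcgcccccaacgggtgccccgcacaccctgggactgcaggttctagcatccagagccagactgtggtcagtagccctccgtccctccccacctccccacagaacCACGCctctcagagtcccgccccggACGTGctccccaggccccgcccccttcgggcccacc
Ldha (chr7:46845554-46845803, plus strand): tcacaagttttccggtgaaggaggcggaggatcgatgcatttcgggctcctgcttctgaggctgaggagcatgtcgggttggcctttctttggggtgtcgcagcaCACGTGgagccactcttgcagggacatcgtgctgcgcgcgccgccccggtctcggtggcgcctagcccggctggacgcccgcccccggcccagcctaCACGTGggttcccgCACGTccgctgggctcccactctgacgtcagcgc
Pgk1 (chrX:106186850-106187099, plus strand): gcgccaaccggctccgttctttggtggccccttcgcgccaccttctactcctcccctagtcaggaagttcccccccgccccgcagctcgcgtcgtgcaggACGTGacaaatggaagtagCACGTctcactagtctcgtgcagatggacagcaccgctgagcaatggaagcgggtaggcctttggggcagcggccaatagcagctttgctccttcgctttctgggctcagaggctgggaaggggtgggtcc
Egln3 (chr12:54203875-54204124, minus strand): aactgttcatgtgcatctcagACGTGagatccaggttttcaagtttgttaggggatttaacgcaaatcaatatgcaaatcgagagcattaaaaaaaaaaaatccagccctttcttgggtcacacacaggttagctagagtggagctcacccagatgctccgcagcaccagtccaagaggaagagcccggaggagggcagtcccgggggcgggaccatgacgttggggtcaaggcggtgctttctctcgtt
Ddit4 (chr10:59951771-59952020, minus strand): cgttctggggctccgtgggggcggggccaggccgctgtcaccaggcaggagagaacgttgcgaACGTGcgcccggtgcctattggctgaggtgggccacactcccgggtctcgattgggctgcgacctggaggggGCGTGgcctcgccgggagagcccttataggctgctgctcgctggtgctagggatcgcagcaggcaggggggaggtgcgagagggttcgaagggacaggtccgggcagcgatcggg
The Ldha window shown held the most, with 5 ACGTG matches counted over both strands, where each palindrome CACGTG counts on both, the farthest at 145 bases before the start; a second annotated start of Ldha has a window with 0 ACGTG and 1 GCGTG. Bnip3 had 2 ACGTG and 3 GCGTG matches, Pgk1 2 ACGTG, and Slc2a1 1 of each, with its ACGTG at 36 bases before the start. Of the 35 genes 33 had an entry, with 49 windows in all, and 22 windows (44.9%) held ACGTG against 16.6% of all 32851 windows of that length. GCGTG stood in 57.1% of the member windows and 28.2% of all windows. Of the members, 19 held ACGTG in at least 1 window. Pdk1 and Adm, also named below, held GCGTG but no ACGTG, and Eno2 held neither core. The windows were not matched on base composition, and a match is a description of letters, not of binding.

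Enzymes dominated the levels. Pkm (pyruvate kinase), Ldha (lactate dehydrogenase A), Pgam1 (phosphoglycerate mutase), Pgk1 (phosphoglycerate kinase) and Tpi1 (triosephosphate isomerase) lay above 170 FPKM in every library, and the 35 genes together took from 0.42% to 0.79% of a library's FPKM. Eno1 stood far lower, at 2.51, 3.04, 1.85 and 2.46 FPKM in WT at 0, 1, 4 and 16 h and 3.64, 3.28, 3.21 and 2.803 in null of set A. Its near-identical retrogene Gm5506 was listed at 316, 319, 311 and 339 FPKM in WT and 767, 756, 702 and 654 in null of set A. The files do not say how reads shared by such copies were split, so the Eno1 values are uncertain, and Gapdh, an enzyme gene with many pseudogenes, is uncertain as well. Null cells of set A and set B at the same time differed in these enzymes by 1.56 and 1.61 (set B minus set A, log2(FPKM + 1), 0 and 1 h) for Eno1 and 0.92 and 0.89 for Gapdh; the other members differed by -0.93 to 0.57. Levels are therefore compared within a set.

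**Figure D1:**
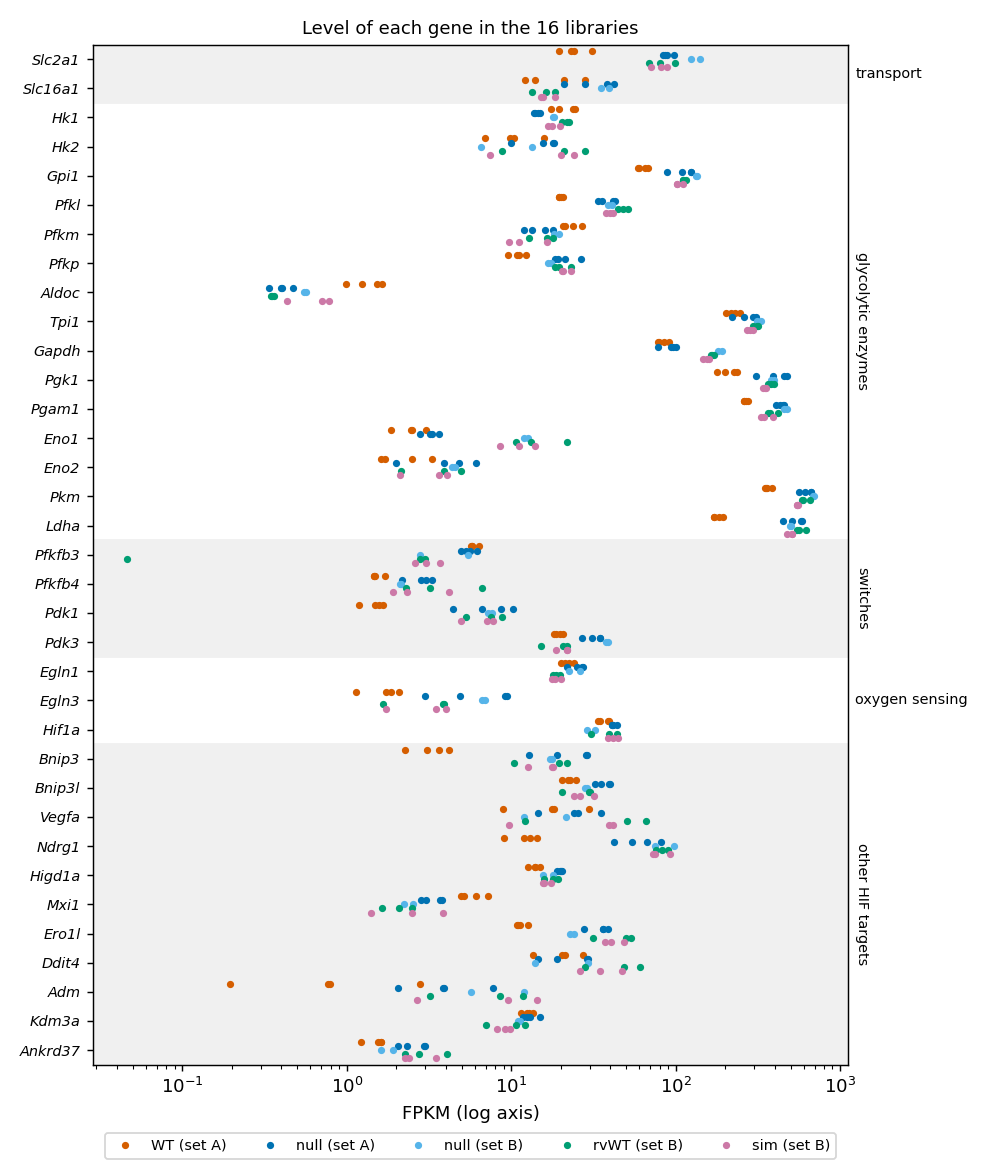
FPKM of each of the 35 genes (log axis) in the 16 libraries, 1 point per library, coloured by line and set and grouped by role. Slc2a1, Ldha, Pdk1, Bnip3, Ndrg1 and Ero1l are among the genes whose 4 WT libraries all lie below the other 12, and Pfkfb3 has 1 point near 0.05 FPKM in rvWT.

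WT cells and null cells were compared over the 8 libraries of set A, to ask how the genes differ with Arkadia status. Most members were lower in WT: of 34 tested (Aldoc, with an average below 1 FPKM, was left out), 25 were lower, 3 higher and 6 did not pass limma's test with time as a block and an adjusted p under 0.05 over all genes. This test called 67.5% of all 10976 genes, 30.1% lower and 37.4% higher in WT, so calls were frequent among all genes. In bulk RNA fewer cells of a kind and less RNA per cell cannot be told apart. The median log2 difference was -0.65 over the members and 0.07 over all genes. Ranges of the WT and null libraries did not overlap for 22 of the 34 members, beside 57.2% of all genes. In the tests all differences are on the log2(FPKM + 1) scale, which understates low genes.

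The mitophagy receptor Bnip3 differed most. It stood at 4.17, 3.62, 2.25 and 3.06 FPKM in WT at 0, 1, 4 and 16 h and at 28.8, 28.6, 19.1 and 12.8 in null, a log2 difference of -2.40 ± 0.17 (SE) with limma adjusted p = 0.000215. Every null library was above every WT library, and the ratio of the means was 6.81. Its relative Bnip3l, at 24.9, 22.04, 20.2 and 22.8 against 39.8, 39.3, 35.04 and 32.3 FPKM, differed by -0.68 ± 0.07 (SE), adjusted p = 0.000593 by limma, again without overlap. Ndrg1, a stress-responsive protein and HIF target, stood at 9.09, 13.01, 11.9 and 14.3 FPKM in WT and 67.1, 81.7, 54.3 and 42.4 in null, a difference of -2.23 ± 0.21 (SE) (limma adjusted p = 0.000518). The lowest null library held about 3 times the level of the highest WT library for this gene. Ero1l, the oxidase that drives disulfide formation in the endoplasmic reticulum, differed by -1.52 ± 0.08 (SE) and was lower in every WT library than in any null library. The peptide hormone adrenomedullin, Adm, differed by -1.37 ± 0.08 (SE). Ankrd37 (-0.51) and the mitochondrial protein Higd1a (-0.48) were lower as well.

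Among transporters and metabolic enzymes the glucose transporter Slc2a1 led, at 19.6, 23.2, 31.2 and 24.1 FPKM in WT and 89.1, 97.1, 86.6 and 83.9 in null (log2 difference -1.84 ± 0.12 (SE), limma adjusted p = 0.000175). Null libraries held a narrow range far above the WT libraries, and the ratio of the means was 3.64. Pdk1, a mitochondrial kinase that inhibits pyruvate dehydrogenase and so keeps pyruvate from becoming acetyl-CoA, stood at 1.66, 1.56, 1.19 and 1.49 FPKM in WT and 10.3, 8.71, 6.66 and 4.402 in null, a difference of -1.73 ± 0.17 (SE) (limma adjusted p = 0.000566). Pdk1 of null cells was lower at each later time, and its 16 h value was still above every WT library. Ldha was at 193, 183, 172 and 172 FPKM in WT and 589, 577, 510.1 and 448 in null (-1.55 ± 0.05 (SE), limma adjusted p = 3.95e-05). Here the times of a line lay close together and the ratio of the null and WT means was 2.95.

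Of the 14 glycolytic enzymes tested 10 were lower in WT, 2 were higher and 2 (Gapdh at -0.14 and Eno1 at -0.30) did not pass, with a median of -0.67. The lower enzymes spanned the chain, with WT minus null differences for Gpi1, glucose-6-phosphate isomerase, of -0.81, and for the liver and platelet phosphofructokinases Pfkl (-0.91) and Pfkp (-0.90), Tpi1 (-0.27), Pgk1 (-0.94), Pgam1 (-0.72), the neuronal enolase Eno2 (-0.63) and Pkm (-0.79). Pgk1 and Pdk3 (-0.69) lie on the X chromosome, and Xist was higher in null. The isoforms were split at the hexokinase and phosphofructokinase steps. Hk1, the housekeeping hexokinase, stood at 19.6, 24.5, 23.7 and 17.4 FPKM in WT and 14.02, 13.8, 14.9 and 14.5 in null and was higher in WT by 0.53 ± 0.10 (SE), while the inducible Hk2 was lower, with a difference of -0.50 ± 0.15 (SE). The muscle phosphofructokinase Pfkm stood at 27.1, 23.7, 20.6 and 21.2 FPKM in WT against 17.9, 16.2, 13.5 and 11.9 in null and was higher by 0.61 ± 0.06 (SE) (limma adjusted p = 0.000567). Aldolase C, Aldoc, was too low to be tested, at 1.63, 1.52, 1.24 and 0.994 FPKM in WT and 0.335, 0.472, 0.401 and 0.399 in null, with every WT library above every null library. Gm5506 and the aldolase retrogene Aldoart1, which are not members and were chosen after their values were seen, differed by -1.16 ± 0.06 (SE) and -0.89 ± 0.05 (SE). The 14 tested enzymes ran from -1.55 to 0.61.

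All 3 oxygen-sensing genes were lower in WT, Egln3 by far the most. Hif1a stood at 39.5, 39.1, 33.7 and 34.7 FPKM in WT and 40.97, 44.2, 41.1 and 41.6 in null, a small difference of -0.19 ± 0.05 (SE) that passed (limma adjusted p = 0.02604), and Egln1 differed by -0.19. Egln3, the hydroxylase known as a strong HIF target, stood at 1.73, 1.85, 1.14 and 2.09 FPKM in WT against 9.22, 9.42, 4.89 and 3.003 in null, with the last null value near the WT range, and differed by -1.40 ± 0.27 (SE) (limma adjusted p = 0.00652). The growth factor Vegfa (-0.44), the mTORC1 inhibitor Ddit4 (-0.12), the histone demethylase Kdm3a (-0.05) and the bifunctional kinase Pfkfb3 (0.08) did not pass. Mxi1, a Max-binding repressor that opposes Myc, was higher in WT, at 7.202, 6.13, 4.94 and 5.18 against 3.81, 3.703, 2.83 and 3.03 FPKM (0.65 ± 0.06 (SE)).

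The median difference at matched times was -0.73, -0.74, -0.70 and -0.57 for the glycolytic enzymes at 0, 1, 4 and 16 h, and -0.65, -0.61, -0.60 and -0.58 for the other HIF targets. At matched times, with Aldoc among the enzymes, the groups thus lay close together in their centre. In the fit, which left out Aldoc, the medians were -0.67 for the enzymes and -0.51 for the other HIF targets. There the groups differed in spread, from -1.55 to 0.61 over the enzymes and from -2.40 to 0.65 over the other targets. No test of the groups against each other was made. Other genes of the pathway were followed in 4 lists, whose counts stand beside the 30.1% lower and 37.4% higher of all genes. Of 14 other glycolysis genes tested 6 were lower and 3 higher (median -0.15). Lactate dehydrogenase B, Ldhb (-1.28), the mitochondrial pyruvate carrier Mpc1 (-1.51) and the muscle enolase Eno3 (-1.56) were lower. Pfkfb1 and Slc2a8 went the other way. Pfkfb1 stood at 3.88 to 6.19 FPKM in WT against 1.89 to 2.94 in null of set A, and Slc2a8 at 3.55 to 4.90 against 1.22 to 2.24. Of 35 other HIF pathway genes and targets 14 were lower and 9 higher with a median of -0.09, near that of all genes. Tmem45a (-3.27), the adenylate kinase Ak4 (-2.45) and the collagen prolyl hydroxylase P4ha1 (-1.67) were lower. Angptl4 and Car12 went the other way. Angptl4 stood at 3.10 to 7.17 FPKM in WT against 0.624 to 1.35 in null of set A, and Car12 at 2.53 to 5.77 against 1.76 to 2.28. Of 8 glycogen genes 5 were lower and 1 higher, and of 7 pentose phosphate genes 4 were lower and 0 higher, with transketolase, Tkt, at -1.11.

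**Figure D2:**
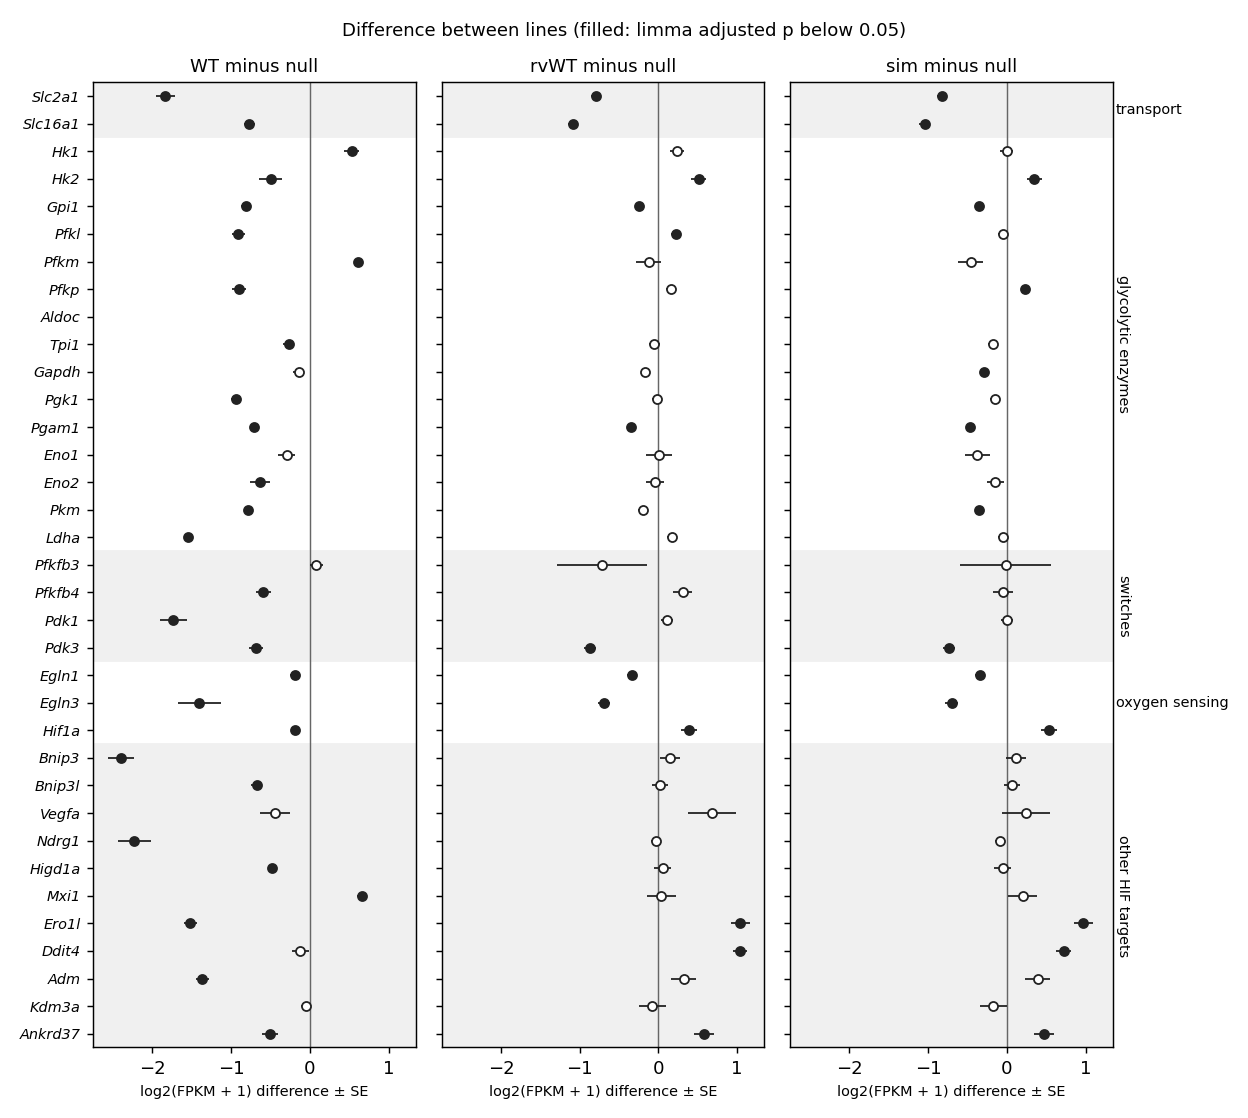
Log2(FPKM + 1) difference ± SE of each gene for WT minus null (set A), rvWT minus null and sim minus null (set B), with filled points where limma's adjusted p was under 0.05. In WT 25 of 34 points are filled and below 0, while in rvWT and sim the transporters lie below 0 and Ero1l near 1. Ddit4 lies at 1.03 in rvWT and 0.72 in sim.

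The null line carrying wild-type or sim Arkadia on a retrovirus was set against the null libraries of its own batch. The fit had 3 libraries against 2 with time as a block, and asked whether the same genes differ when a retrovirus supplies Arkadia. Rnf111 was far higher in every rvWT and sim library than in any WT library of set A, so its WT level was not restored. In rvWT 6 of 34 members were higher and 7 lower (9 and 6 with median-ratio scaling), beside 38.6% of 10958 genes called, 16.0% higher and 22.6% lower. In sim 6 were higher and 9 lower, beside 34.7% of all genes called, 13.9% higher and 20.8% lower. The shares of members called, 13 and 15 of 34, are close to those of all genes, and the member medians were 0.01 and -0.05 against -0.03 and -0.02 over all genes. Ranges did not overlap with null for 17 and 18 members, beside 52.9% and 52.1% of all genes. The rvWT count was 8 without rvWT 1 h, without null 0 h or without null 1 h of set B, and the sim count was 8 without sim 0 h, 9 without null 0 h and 8 without null 1 h. Both comparisons share the null libraries, so their likeness is not independent.

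Both transporters and both prolyl hydroxylases were lower in both reconstituted lines. The lactate transporter Slc16a1 stood at 39.2 and 35.1 FPKM in null of set B at 0 and 1 h, at 18.4, 16.4 and 13.4 in rvWT at 0, 1 and 4 h and at 18.5, 15.7 and 15.2 in sim. All 6 reconstituted libraries were below both null libraries, with log2 differences of -1.08 ± 0.07 (SE) in rvWT and -1.05 ± 0.07 (SE) in sim (limma adjusted p = 0.000316 and 0.000455). Slc2a1 stood at 125 and 140.0 FPKM in null, 68.8, 80.5 and 98.9 in rvWT and 71.1, 80.98 and 88.9 in sim, differences of -0.79 ± 0.06 (SE) and -0.82 ± 0.06 (SE) with adjusted p = 0.000635 and 0.000706 by limma. Null of set A, at 89.1, 97.1, 86.6 and 83.9 FPKM, overlapped the reconstituted lines, and the null libraries of the sets differed by 0.48 and 0.52 at 0 and 1 h. The pyruvate dehydrogenase kinase Pdk3 was lower too, at 38.9 and 37.6 FPKM in null, 21.7, 20.6 and 15.1 in rvWT and 21.9, 21.7 and 18.8 in sim (-0.87 and -0.74), with no overlap. Egln3 stood at 6.67 and 6.93 FPKM in null, 3.83, 3.92 and 1.67 in rvWT and 3.996, 3.51 and 1.74 in sim, differences of -0.69 ± 0.08 (SE) and -0.70 ± 0.08 (SE), and its relative Egln1 differed by -0.34 and -0.35. Pgam1 stood at 479 and 459 FPKM in null, 376, 363 and 421 in rvWT and 332, 345 and 392 in sim (-0.35 ± 0.05 (SE) and -0.46 ± 0.05 (SE)), again without overlap.

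Ero1l and Ddit4 went the other way. Ero1l stood at 23.97 and 22.9 FPKM in null, 53.5, 50.01 and 31.5 in rvWT and 48.7, 40.6 and 36.95 in sim, higher by 1.04 ± 0.12 (SE) and 0.97 ± 0.12 (SE) (limma adjusted p = 0.00238 and 0.00342). Every reconstituted library was above both null libraries of set B, but null of set A, at 36.4, 35.9, 27.8 and 38.8 FPKM, overlapped the reconstituted lines. Ddit4 stood at 14.03 and 29.2 FPKM in null, 27.99, 61.1 and 48.4 in rvWT and 26.2, 46.9 and 34.6 in sim, higher by 1.03 ± 0.09 (SE) and 0.72 ± 0.09 (SE) with the 1 h null library inside both reconstituted ranges. Hif1a stood at 28.9 and 32.3 FPKM in null, 39.6, 43.9 and 30.5 in rvWT and 44.8, 41.5 and 38.6 in sim, higher by 0.39 ± 0.10 (SE) and 0.53 ± 0.10 (SE). Ankrd37, an ankyrin-repeat protein, stood at 1.92 and 1.62 FPKM in null, 4.09, 2.26 and 2.74 in rvWT and 3.47, 2.402 and 2.24 in sim (0.58 and 0.47). Hk2 was at 6.52 and 13.3 FPKM in null, 8.75, 20.9 and 28.3 in rvWT and 7.44, 20.03 and 24.04 in sim (0.51 and 0.35), so the untreated libraries of the lines lay close together. Hif1a of null cells differed by -0.49 and -0.44 between the sets at 0 and 1 h, about as far as the lines differ, and without null 0 h of set B its calls were lost (0.32 in rvWT with limma adjusted p = 0.213). The same library decided the Ankrd37 calls (0.40 in rvWT without it, adjusted p = 0.131 by limma) and the Pgam1 call in rvWT, and null 1 h decided those of Hk2 (0.35 in rvWT, limma adjusted p = 0.0742); for Hif1a, Ankrd37 and Hk2 other libraries of set B did so as well.

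Of the 5 members that were lowest in WT relative to null, only Slc2a1 passed in the reconstituted lines. The next in size, Ero1l and Egln3, passed as given above, Ero1l in the opposite direction and Egln3 in the same. Bnip3 differed by 0.15 ± 0.13 (SE) in rvWT and 0.11 ± 0.13 (SE) in sim, Ndrg1 by -0.03 ± 0.06 (SE) and -0.09 ± 0.06 (SE), Pdk1 by 0.11 ± 0.07 (SE) and 0.0015 ± 0.07 (SE), and Ldha by 0.17 ± 0.06 (SE) and -0.05 ± 0.06 (SE). Their 95% intervals were -0.17 to 0.47 and -0.21 to 0.43 for Bnip3, -0.18 to 0.12 and -0.24 to 0.06 for Ndrg1, -0.08 to 0.30 and -0.19 to 0.19 for Pdk1, and 0.01 to 0.32 and -0.20 to 0.11 for Ldha. None of these intervals reaches the WT minus null value of the gene in set A. Rnf111 was above its WT level in both lines, and the part of that excess in these differences was not tested. The glycolytic enzymes had a median of -0.03 in rvWT and -0.17 in sim, and the other HIF targets 0.15 and 0.20. Outside the list, Car9, the carbonic anhydrase of hypoxic cells, was lower in rvWT and sim (-2.09 and -1.92), as was Epas1, which encodes HIF-2 alpha (-1.31 and -1.15), while the chemokine Cxcl12 was higher by 1.76 and 2.04. Beside the shares of all genes given above, of the 33 other HIF pathway genes tested rvWT had 7 above null and 7 below it, and sim 5 and 7. Of the 14 other glycolysis genes 2 passed above null and 2 below it in rvWT, and 1 and 2 in sim. Glycogen genes were lower in 5 and 4 of 8 cases, and pentose phosphate genes in 2 and 3 of 7, with 0 higher in either list.

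Sim and rvWT cells were compared within the same fit, to ask how these genes differ between the lines. Rnf111 was lower in every sim library than in every rvWT library, with the means given above. The mutation therefore cannot be told apart from the level of the construct, and the part of either was not tested. Limma called 0 of 34 members (9 at an unadjusted p under 0.05), beside 0.493% of all genes, 54 of them (1818 at an unadjusted p under 0.05). The smallest p-values belonged to Pfkl, at 37.8, 39.6 and 41.5 FPKM in sim against 47.8, 44.7 and 51.5 in rvWT (log2 difference -0.27 ± 0.05 (SE), 95% interval -0.40 to -0.14, limma adjusted p = 0.114), and Ldha, at 474, 508 and 508 against 566, 547 and 619 FPKM (-0.22 ± 0.05 (SE), 95% interval -0.35 to -0.08, adjusted p = 0.1701). Both were lower in sim at each time. For 32 of the 34 members the 95% interval lay within -1 and 1, and the exceptions were Vegfa (-1.10 to 0.21) and Pfkfb3 (-0.54 to 1.94). In Pfkfb3 a single library, rvWT 4 h, was listed at 0.0463 FPKM against 2.79 and 3.005 at 0 and 1 h, and null of set B at 5.49 and 2.79; their part in the wide interval was not tested. Ranges did not overlap for 7 members, all of them lower in sim, beside 7.94% of all genes in either direction. The median log2 difference was -0.11 over the members and 0.01 over all genes.

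The response to TGFβ was measured over all 16 libraries with the 5 time series as a block. Every library after 0 h had TGFβ, so changes with TGFβ cannot be told apart from changes with time in culture. A rise or fall below is a change from 0 h. At 1 h the growth factor Vegfa, the mTORC1 inhibitor Ddit4 and the hexokinase Hk2 rose and no fall passed (Adm, at -0.77 ± 0.20 (SE), had limma adjusted p = 0.0524), so 3 of 34 members were called beside 5.96% of 11045 genes, 3.95% that rose and 2.01% that fell. At 4 h 5 rose and 13 fell, beside 39.0% of all genes called, 11.9% that rose and 27.1% that fell. At 16 h, measured in set A alone, 4 rose and 8 fell, beside 19.4% of all genes called, 6.84% that rose and 12.5% that fell. Member medians were -0.02, -0.11 and -0.18 at 1, 4 and 16 h against -0.03, -0.08 and -0.07 over all genes. With set A alone limma called 0 members at 1 h and 0 at 4 h, and 12 and 16 of all genes; with set B alone it called 4 at 1 h, all higher, and 18 at 4 h, 8 higher and 10 lower. The 1 h count was 5 without the WT 16 h or the null 16 h library, and the 16 h count, 12 with all libraries, was 5 without the null 16 h library and 7 without the null 0 h library of set A.

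Vegfa rose in each of the 5 series at 1 h. It went from 8.95 to 29.7 FPKM in WT, from 14.6 to 25.6 and from 11.96 to 21.6 in null of sets A and B, from 12.2 to 50.9 in rvWT and from 9.66 to 41.3 in sim. The change was 1.43 ± 0.25 (SE) at 1 h (limma adjusted p = 0.00591) and 1.39 ± 0.27 (SE) at 4 h, with 65.9 FPKM in rvWT then the highest value of any library. At 16 h Vegfa was at 18.2 FPKM in WT and 35.3 in null (1.36 ± 0.35 (SE)), a call lost without that null library (1.04, limma adjusted p = 0.288), as were the 16 h calls of Hk2, Bnip3, Pdk1 and Pfkp. Ddit4 rose by 0.96 ± 0.08 (SE) at 1 h (limma adjusted p = 7.62e-05), with changes of 0.82 to 1.10 over the 5 series, the narrowest spread of the 3 genes. It stood at 13.6, 27.2, 21.3 and 20.4 FPKM in WT and 14.5, 28.8, 18.9 and 29.1 in null of set A at 0, 1, 4 and 16 h, so the level at 1 h was about the same in both. At 4 h its change was 0.54 ± 0.09 (SE) and at 16 h 0.78 ± 0.12 (SE). Hk2 rose from 6.89 to 9.800 FPKM in WT, 9.91 to 18.1 and 6.52 to 13.3 in null of sets A and B, 8.75 to 20.9 in rvWT and 7.44 to 20.03 in sim. Its change was 0.93 ± 0.15 (SE) at 1 h and 1.21 ± 0.16 (SE) at 4 h (limma adjusted p = 0.00335 and 0.000465), and it was the sole glycolytic enzyme called at 1 h.

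**Figure D3:**
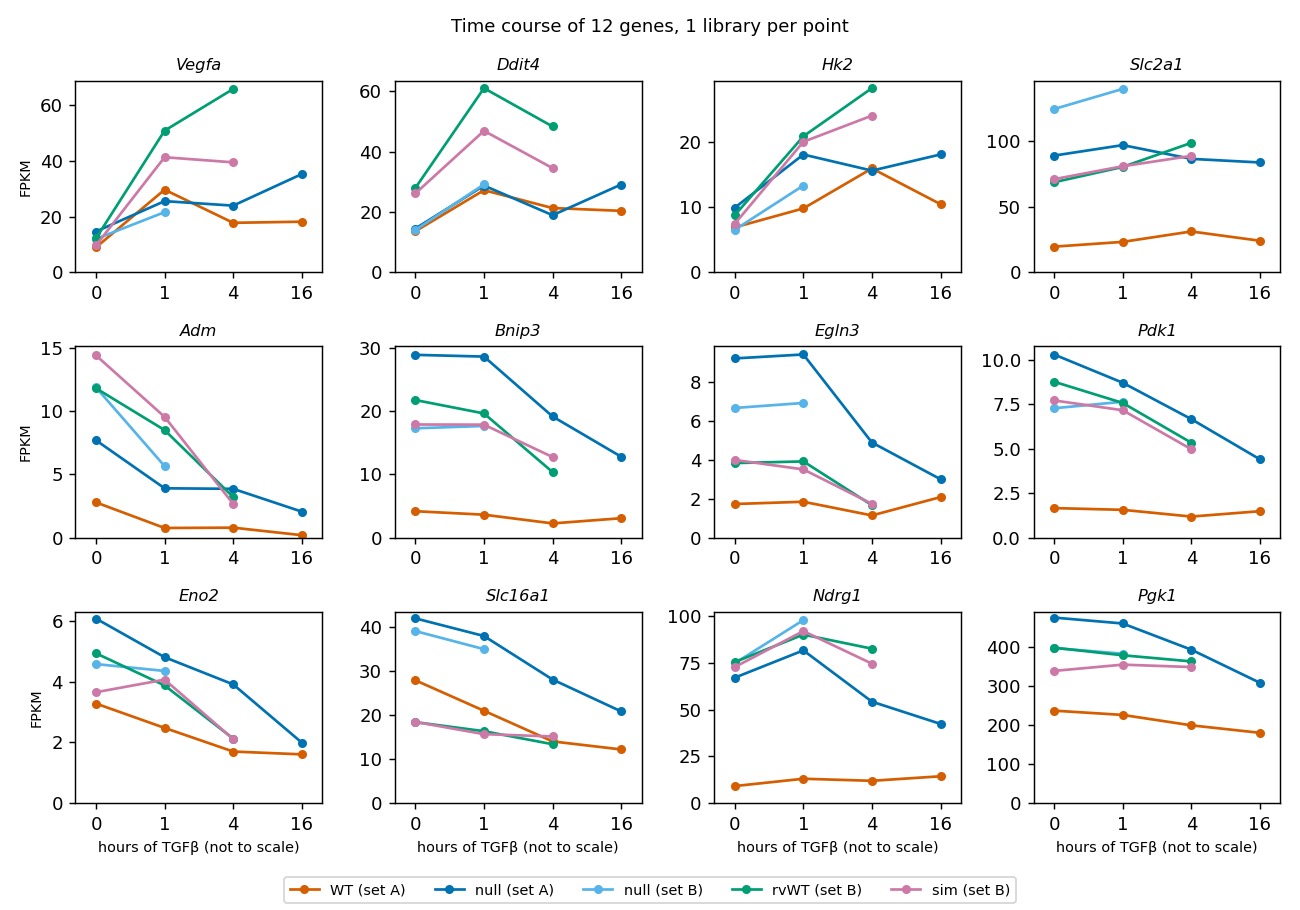
FPKM of 12 genes at 0, 1, 4 and 16 h of TGFβ (time axis not to scale), 1 library per point, coloured by line and set. Vegfa, Ddit4 and Hk2 are higher at 1 h than at 0 h in all 5 series, whereas Adm, Slc16a1 and Pdk1 are lower at the last time than at 0 h in WT, null of set A, rvWT and sim.

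Other members fell, most of them by 4 h. Adm stood at 2.79, 0.765, 0.7900 and 0.195 FPKM in WT at 0, 1, 4 and 16 h, 7.700, 3.904, 3.86 and 2.06 in null of set A, 11.9 and 5.66 in null of set B at 0 and 1 h, 11.8, 8.51 and 3.21 in rvWT and 14.4, 9.55 and 2.67 in sim at 0, 1 and 4 h. Each treated library was below the 0 h library of its series, and the change was -1.42 ± 0.22 (SE) at 4 h and -1.68 ± 0.29 (SE) at 16 h (limma adjusted p = 0.00118 and 0.00332). Slc16a1 fell by 0.55 ± 0.09 (SE) at 4 h and 0.97 ± 0.11 (SE) at 16 h, and Eno2 by 0.66 ± 0.12 (SE) and 0.96 ± 0.15 (SE) (limma adjusted p = 0.00214 and 0.00203). Eno2 stood at 3.28, 2.48, 1.697 and 1.605 FPKM in WT and 6.08, 4.81, 3.91 and 1.99 in null of set A. It stood at 4.94, 3.88 and 2.12 in rvWT and 3.65, 4.07 and 2.11 in sim. The last time was the lowest in each of these series. In null of set A Slc16a1 went from 42.1 to 20.9 FPKM and in WT from 27.97 to 12.2. Bnip3 had a change of -0.66 ± 0.13 (SE) at 4 h and -0.74 ± 0.17 (SE) at 16 h, and over the 4 series with a 4 h library its change at 4 h ran from -1.001 to -0.46. Bnip3l (-0.34), Ero1l (-0.42), Mxi1 (-0.52), Kdm3a (-0.29), Egln3 (-0.71), Pdk1 (-0.48), Pdk3 (-0.25), Pfkm (-0.36) and Pgk1 (-0.16) fell at 4 h too. The Egln3 call was lost without null 0 h of set A or without the 0 or 4 h library of rvWT or sim, with changes of -0.69 to -0.64.

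Other members rose or passed at no time. Slc2a1 (0.36 ± 0.09 (SE)) and the bifunctional kinase Pfkfb4 (0.59 ± 0.16 (SE)) rose at 4 h, but the series were not uniform: Slc2a1 changed by -0.04 in null of set A and Pfkfb4 by 0.00019 in WT. The Pfkfb4 call was lost without rvWT 0 h, rvWT 4 h or sim 4 h. Pfkfb4 stood at 1.46, 1.71, 1.46 and 1.49 FPKM in WT, 2.17, 3.02, 3.296 and 2.84 in null of set A, 2.29, 3.198 and 6.63 in rvWT and 1.91, 2.33 and 4.16 in sim. At 16 h Pfkp rose by 0.33 ± 0.10 (SE), from 11.1 to 12.3 FPKM in WT and from 19.3 to 26.7 in null. This call was lost without any 1 of 9 libraries. Pgk1 (-0.47), Gpi1 (-0.28), Tpi1 (-0.29) and Pdk1 (-0.59) fell at 16 h. For Pgk1, Gpi1 and Tpi1 the 16 h changes were -0.39, -0.14 and -0.18 in WT. In null of set A they were -0.62, -0.48 and -0.48. Without the null 16 h library not every call of Pgk1, Gpi1 and Tpi1 was kept. The Pdk1 call was lost with quantile normalization and without null 0 h or 16 h of set A, rvWT 0 h or sim 0 h. Pkm, Ldha, Pgam1, Gapdh, Pfkl and Hk1 passed at none of the 3 times, with changes of -0.04 to 0.09 at 4 h and -0.22 to -0.01 at 16 h. In null of set A the 16 h changes were -0.39 for Ldha, -0.36 for Gapdh, -0.35 for Pfkl and -0.25 for Pkm, against -0.16, 0.02, 0.06 and 0.02 in WT. Hif1a changed by 0.06, -0.19 and -0.10 at 1, 4 and 16 h and did not pass.

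By role, of 11 other HIF targets 2 rose and 6 fell at 4 h with a median of -0.31, while of 14 glycolytic enzymes 1 rose and 3 fell with a median of -0.01, beside 11.9% of all genes that rose and 27.1% that fell. The 2 groups were not tested against each other. Series by series the median 4 h change of the other HIF targets was -0.22 in WT, -0.30 in null of set A, -0.45 in rvWT and -0.39 in sim, and that of the enzymes -0.16, -0.14, 0.07 and 0.10. All genes had medians of -0.06, -0.07, -0.11 and -0.09 in the same series. At 16 h the medians were -0.21 for the other targets and -0.15 for the enzymes. In the enzymes the 16 h change was -0.35 in null and -0.14 in WT.

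**Figure D4:**
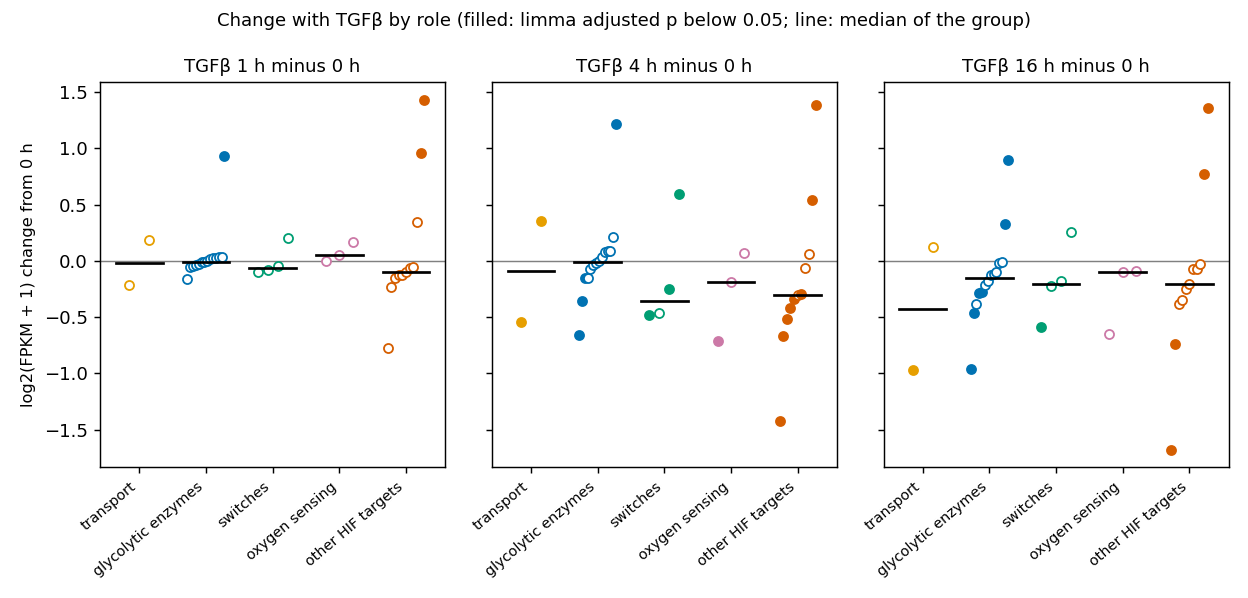
Log2(FPKM + 1) change from 0 h at 1, 4 and 16 h of TGFβ for the 34 tested genes by role, with filled points where limma's adjusted p was under 0.05 and a line at the group median. At 4 h 6 of 11 other HIF targets are filled and below 0, and the 14 glycolytic enzymes centre near 0 with Hk2 at 1.21.

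Pathway genes outside the list also changed with TGFβ, and their counts stand beside 3.95%, 11.9% and 6.84% of all genes that rose and 2.01%, 27.1% and 12.5% that fell at 1, 4 and 16 h. The transcriptional repressor Bhlhe40, known as a HIF target, rose by 1.99, 2.003 and 1.83 at 1, 4 and 16 h. The lysyl oxidases Lox (0.70 at 4 h) and Loxl2 (0.57) and the lysyl hydroxylase Plod2 (0.71) rose. Of 35 other HIF pathway genes 4 rose and 1 fell at 1 h, 8 and 8 at 4 h, and 7 and 3 at 16 h. Of 14 other glycolysis genes 0 rose and 2 fell at 1 h, 1 and 7 at 4 h, and 1 and 3 at 16 h, among them the pyruvate dehydrogenase phosphatase Pdp1 (-1.28 at 4 h) and Ldhb (-0.43). Glycogen genes rose in 0, 1 and 0 and fell in 0, 5 and 2 of 8 cases at 1, 4 and 16 h, and pentose phosphate genes fell in 0, 2 and 3 of 7 with 0 rises.

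Whether the time course itself differs between lines was tested with terms for line by time and a moderated F test. The residual scatter of this fit came from the null libraries of both sets and from rvWT against sim. WT libraries and 16 h libraries added none, so the F p-values do not measure their scatter. Between WT and null 2 of 34 members, Egln3 and Ndrg1, were called, beside 1.44% of 11045 genes. Ndrg1 went from 9.09 to 14.3 FPKM in WT and from 67.1 to 42.4 in null of set A. The WT minus null difference in response was 0.14, 0.63 and 1.23 at 1, 4 and 16 h (limma F adjusted p = 0.0466). Egln3 went from 1.73 to 2.09 FPKM in WT and from 9.22 to 3.003 in null, with differences in response of 0.02, 0.44 and 1.52 (limma F adjusted p = 0.0437). Both rest on 1 library per line and time, and both calls were lost without null 0 h or null 1 h of either set, without rvWT 0 or 1 h and without sim 0 or 1 h; 1 of them was lost without rvWT 4 h or sim 4 h. Hk2 (adjusted p = 0.0907), Slc2a1 (0.131), Pdk1 (0.133) and Vegfa (0.155) did not pass the same limma F test.

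Between the reconstituted lines and null the F test called 0 of 34 members, beside 0.0272% of all genes, 3 of them, at an adjusted p under 0.05. At an unadjusted p under 0.05 there were 8 members. The share of all genes at that unadjusted threshold was not counted, so the 8 cannot be read as particular to the members. Without sim 4 h 1 member was called. Vegfa had the largest terms, 1.20 at 1 h and 1.45 at 4 h (limma F adjusted p = 0.199); its 1 h change was 1.98 in rvWT and 1.99 in sim against 0.76 and 0.80 in null of sets A and B. In WT the 1 h change was 1.62. Hk2 had terms of 0.37 and 0.94 and Adm of 0.40 and -0.97, and neither passed (adjusted p = 0.199 and 0.235). A p that misses the threshold in this small design does not show that the responses were alike.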

How the data were processed

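Poly(A) RNA of 16 libraries was sequenced by the authors, who deposited 1 table of FPKM values for 12100 genes; 8 of the 35 members are entered as a named transcript variant. The submitters' processing notes list STAR 2.3.0e, Cufflinks 2.2.1, SAMtools, CASAVA 1.8.2 and mm9, in no stated order or role (no source used here says how reads with several map positions were handled). The smallest average of any gene within a set was 0.25 FPKM, so the table holds no gene that is silent throughout a set. Whole reads could not be recovered: 92 of 309 genes under 0.25 FPKM gave small whole-number ratios between libraries, within 0.006 on a log2 scale, so depth is unknown.

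Log2(FPKM + 1) was fitted with limma 3.58.1 (limma-trend, R 4.3.3). Genes averaging 1 FPKM or more in the fitted libraries entered, p-values were adjusted by Benjamini-Hochberg over all of them, and 0.05 was the threshold. Line comparisons were fitted within set A (WT, null) or set B (the retroviral lines, null) with time as a block, and the TGFβ response over all libraries with series as a block. The scripts were tested on simulated data. Alternatives tried were other pseudocounts (0.1, 5), other filters (none, a mean of 5 FPKM), median-ratio and quantile scaling, single sets, no time block, and omission of each library. The members, lists and tests were chosen with earlier results of these data known. Values by library are given, per comparison, for up to 5 members with the largest rise and 5 with the largest fall among those that passed, or for the 2 with the smallest p where none did. Up to 3 genes with the smallest p were to be named from each list of other pathway genes (other glycolysis 15 of 26 listed genes in the table, other HIF 35 of 41, glycogen 9 of 11, pentose phosphate 7 of 7). Any further gene was chosen after its values were seen. Pkm2 was matched through its RefSeq synonym. A gene of the HIF list is not reported here by name.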

Additional observations from a re-analysis of the deposited data

Results flagged for a closer look

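The time course of Egln3 and Ndrg1 differed between WT and null by the test of the difference itself, a moderated F over the terms WT by 1, 4 and 16 h (limma adjusted p = 0.0437 for Egln3 and 0.0466 for Ndrg1). In null of set A Egln3 changed by -1.35 and Ndrg1 by -0.65 from 0 to 16 h on the log2(FPKM + 1) scale, and in WT they changed by 0.18 and 0.60. Both calls were lost in 8 of the 11 fits that left out a single library and could be made, and 1 of them in a further 2. WT and 16 h libraries added no residual scatter to the full fit, so its p-values do not measure theirs.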

How the results depend on the processing

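Counts of called members stayed within 1.5 times the value given, for the 4 line comparisons and the 3 TGFβ times, under pseudocounts of 0.1 and 5, no filter, a minimum mean of 5 FPKM, median-ratio scaling and quantile normalization. The WT minus null time course difference, 2 members, was 1 under the minimum mean of 5 FPKM, which leaves fewer members tested. Set A alone called 0 members at 1 h and 0 at 4 h of TGFβ. With each library of a fit left out in turn the counts ran from 25 to 27 for WT minus null, 8 to 16 for rvWT minus null, 8 to 15 for sim minus null, 0 to 0 for sim minus rvWT, 3 to 5 at 1 h, 12 to 19 at 4 h and 5 to 18 at 16 h (sim minus null was 9 without null 0 h of set B, and the 16 h count 7 without null 0 h of set A), and from 0 to 2 and 0 to 1 for the response differences of WT and of the reconstituted lines, for which only 11 and 15 of the 16 omissions could be fitted with all terms. Of the alternative values of named members none changed sign, 861 kept their side of the threshold and 67 lost the call; the cause was not tested. No paired analysis was possible because the labels give no replicate numbers, as far as pairing by such a number goes; libraries were instead matched by time in the line comparisons and by series in the TGFβ comparisons, and without the time block WT minus null called 24 members. With 1 library per line and time, low genes such as Pfkfb3, Adm and Ankrd37 rest on an unknown number of fragments.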
